A study of Mus musculus with 21 samples.

Results

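H2Bub1 domains that were listed both in mouse cells differentiated for 4 days and in embryonic stem (ES) cells overexpressing Fbxl19, but not in unmodified ES cells or in either Fbxl19 knockdown, numbered 2399. A domain is a broad stretch of the genome over which the authors called enrichment of H2Bub1, histone H2B carrying 1 ubiquitin. Members were the domains of the differentiated list that overlapped a domain of the overexpression (OE-high) list by at least 1 bp and no domain of the ES, knockdown or differentiated knockdown lists. They made up 46.8% of the 5125 differentiated domains, and the 5 H2Bub1 lists together held 18181 domains. With the differentiated and OE-high lists limited to their upper 50% by score there were 643. The members were chosen by presence and absence in these lists, so their number, length and score are given as a description. Absence from a list means that no domain was called there, not that the mark was absent.

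All cells were of the mouse J1 ES line, and chromatin immunoprecipitation with sequencing was run on 21 samples. H2Bub1 was precipitated with an antibody in 2 samples of differentiated cells at day 4, 3 samples of the OE-high clone, whose tagged Fbxl19 exceeded the endogenous protein more than 5-fold, 2 samples of differentiated cells with Fbxl19 knocked down, 2 samples of ES cells with Fbxl19 knocked down and 3 samples of ES cells. Tagged Fbxl19 was pulled down with streptavidin in 2 samples of the OE-high clone and in 2 samples of a second clone with less than endogenous amounts (OE-low), and Rnf20 in 1 sample. Per the labels, the OE-low and Rnf20 samples came from J1 cells containing BirA, a biotin ligase, and 4 further samples were input DNA with no list used here. The OE-high cells were selected as a clone, so effects of the clone and of the Fbxl19 level cannot be told apart. The sources used here do not give the means of differentiation or knockdown.

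Each group had 1 list for its samples (the third OE-high H2Bub1 sample names none), so no spread between replicates could be set against a difference and no test was possible. The 95% intervals given here are exact Clopper-Pearson intervals for shares and exact order-statistic intervals for medians. They cover counting error only, and domains are not replicates. The track lines carry a number with the suffix M, whose meaning is not stated, of 36 for differentiated cells, 46 for OE-high, 41 for the differentiated knockdown, 46 for the knockdown and 60 for ES cells. Depth per sample is unknown. Positions are on mm9, counted from 1, and no gene was assigned to a domain, since no annotation of that build was used here.

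Rnf20 is the catalytic subunit of the Rnf20-Rnf40 ubiquitin ligase, which places ubiquitin on H2B while RNA polymerase II transcribes, and the mark is typical of gene bodies under active transcription. Fbxl19 is an F-box protein whose CXXC zinc finger binds unmethylated CpG, the form found at the CpG islands of many promoters. The series title names recruitment of Rnf20 to CpG islands by Fbxl19 and promotion of H2Bub1 as its subject, and domains common to raised Fbxl19 and to differentiation show where lists of both conditions coincide.

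Most differentiated domains that were in none of the ES and knockdown lists were also in the OE-high list. Of 2645 such domains, 2399 met the OE-high list (90.7%, interval 89.5 to 91.8), beside 94.2% of all differentiated domains. Lack of an ES domain was shared by 58.7% of the differentiated list. Seen from the OE-high list, 2358 of the 4289 domains in no ES or knockdown list (55.0%, interval 53.5 to 56.5) overlapped a differentiated domain. These counts follow from the rule. Among the other differentiated domains, 2085 were also in the ES and OE-high lists, 343 were in the OE-high list and a knockdown list but not in the ES list, 246 were in no other list, and 52 were outside the OE-high list but in an ES or knockdown list.

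The members covered 66.3 Mb and were somewhat shorter and lower in score than the domains that ES cells also had. Their length ran from 400 to 231600 bp with a median of 17200 bp and quartiles of 7800 and 35500 bp, and 521 of them (21.7%) were 40 kb or longer. Domains also in the ES and OE-high lists had a median of 23400 bp, and differentiated-only domains one of 10300 bp. The authors' score, which ranks domains within a list, had a median of 9.32 in members, 11.7 in domains also in the ES and OE-high lists and 8.32 in differentiated-only domains. Score and length were nearly unrelated across the 2399 members, with a Spearman rho of 0.014 given as a description. The list has a floor at a score of about 7, and 590 members (24.6%) scored under 8, against 210 of the domains also in ES and OE-high (10.1%).

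The rule itself keeps members off the domains of the barring lists, and their distances are a description. The median distance to the nearest ES domain was 178800 bp (interval 164200 to 193000), against 209600 bp in domains of OE-high and a knockdown list, 195000 bp in differentiated-only and 196600 bp in OE-high-only domains. A barring domain of any of the 3 lists lay within 100 kb of 1061 members (44.2%), and 67 members (2.79%) had an ES domain within 10 kb. The nearest other member was at a median of 88800 bp, and 1259 members (52.5%) had another member within 100 kb. Just inside the rule, the members at 108379000 to 108383799 on chromosome 8 and at 55192400 to 55201399 on chromosome 13 lay 400 bp from a barring domain. Just outside it, the differentiated domains at 70338000 to 70341199 on chromosome 11 and at 70033200 to 70071399 on chromosome 4 overlapped one by 400 bp. On the OE-high side, the smallest overlaps inside were those of 2 members that were themselves 400 bp long, on chromosome 19 (40696400 to 40696799) and chromosome 9 (80667600 to 80667999). The closest miss was 78604800 to 78633399 on chromosome 15, 800 bp from an OE-high domain.

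The matching OE-high domain usually covered the whole member. OE-high domains covered 1374 members (57.3%, interval 55.3 to 59.3) in full, the lower quartile of the covered share was 96.1%, and 29 members (1.21%) were covered by less than 50%. A single OE-high domain matched 2327 members (97.0%), and 2268 of the 2368 OE-high domains involved (95.8%) met a single member. The correspondence was therefore close to domain by domain, and few members were pieces of an OE-high domain that ran on into an ES domain. The OE-high domain also overlapped an ES domain for 62 members (2.58%, interval 1.99 to 3.30), and an ES or knockdown domain for 86 (3.58%).

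In the 2283 members over 2 kb with a single OE-high match, the OE-high domain was longer in 1549 (67.8%, interval 65.9 to 69.8), equal in 136 and shorter in 598. The OE-high list was broader as a whole, with 245.8 Mb and a median length of 21600 bp. The differentiated list had 155.5 Mb and 19800 bp. Shares on coverage, matching and relative length are given for members only, so they do not set members apart from other domains. The median ratio of OE-high to differentiated length was 1.09 (interval 1.07 to 1.11), with quartiles of 0.994 and 1.82. In 516 of them (22.6%) the OE-high domain was at least 2 times as long. Across these pairs the Spearman rho was 0.75 for length and 0.45 for score, both descriptions across domains that share their 2 lists. The OE-high domains met by members had a median score of 11.9, at percentile 52.1 of the OE-high list.

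Fbxl19 and Rnf20 peaks were not used by the rule, although the OE-high Fbxl19 peaks come from the same clone as the OE-high H2Bub1 list. None of the Fbxl19 and Rnf20 samples was of differentiated cells, so binding at day 4 was not measured. The rule also bars domains called in ES cells. Comparisons with domains also in ES are therefore not independent of it, for these peaks. An OE-high domain is required by the rule, and differentiated-only domains lack one by definition. The comparison with them is likewise not independent of the rule. An OE-high Fbxl19 peak lay in 1626 members (67.8%, interval 65.9 to 69.6), near the background of 72.3% of all differentiated domains and of 67.5% of all OE-high domains. The summit itself lay inside in 45.4% of members. With the peak lists limited to their upper 50% by score the share was 38.1%, so it depends on how many peaks are listed. The share was lower than the 80.9% (interval 79.2 to 82.6) of domains also in the ES and OE-high lists, by 13.1 percentage points (-13.1, interval -15.7 to -10.6). It was higher than the 35.8% (interval 29.8 to 42.1) of differentiated-only domains, by 32.0 points (interval 25.4 to 38.3). It also exceeded the 50.1% (interval 47.8 to 52.3) of the 1931 domains in the OE-high list alone, by 17.7 points (interval 14.7 to 20.6). Those domains are as called in the OE-high list, with a median of 13000 bp against 17200 bp in members. That difference therefore also spans different lists and lengths. Members thus stood between the domains that ES cells had and the domains that appeared in a single list.

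Rnf20, the ligase, gave the same order of classes. An Rnf20 peak lay in 586 members (24.4%, interval 22.7 to 26.2), against a background of 32.1% of differentiated and 31.7% of OE-high domains. It was 14.4% with the upper 50% of peaks by score and 7.75% with the Rnf20 list at the size of the OE-low list. The share was 42.3% (interval 40.2 to 44.5) in domains also in the ES and OE-high lists, and the difference was -17.9 points (interval -20.6 to -15.1). In differentiated-only domains it was 11.4% (interval 7.70 to 16.03), and in OE-high-only domains 18.3% (interval 16.6 to 20.1). The difference of the members from these was 13.0 points (interval 8.09 to 17.1) and 6.09 points (interval 3.61 to 8.55).

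Peaks of the OE-low clone, in which tagged Fbxl19 stayed below the endogenous level, were few in the members, from a list of 2213 peaks against 13669 for OE-high. They lay in 201 members (8.38%, interval 7.30 to 9.56), against a background of 11.9%, and in 16.7% (interval 15.1 to 18.4) of the domains also in the ES and OE-high lists. The difference between these was -8.31 points (interval -10.3 to -6.34). With the upper 50% of peaks by score the share of members was 4.71%. OE-high-only domains had them in 7.51% of cases, and the difference of 0.87 points from the members had an interval of -0.79 to 2.51, which includes 0. The 343 domains in the OE-high list and a knockdown list but not in ES were close to the domains also in ES and OE-high in all 3 shares, with OE-high Fbxl19 in 81.3% (interval 76.8 to 85.3), OE-low Fbxl19 in 14.9% (interval 11.3 to 19.1) and Rnf20 in 40.8% (interval 35.6 to 46.2).

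**Figure D1:**
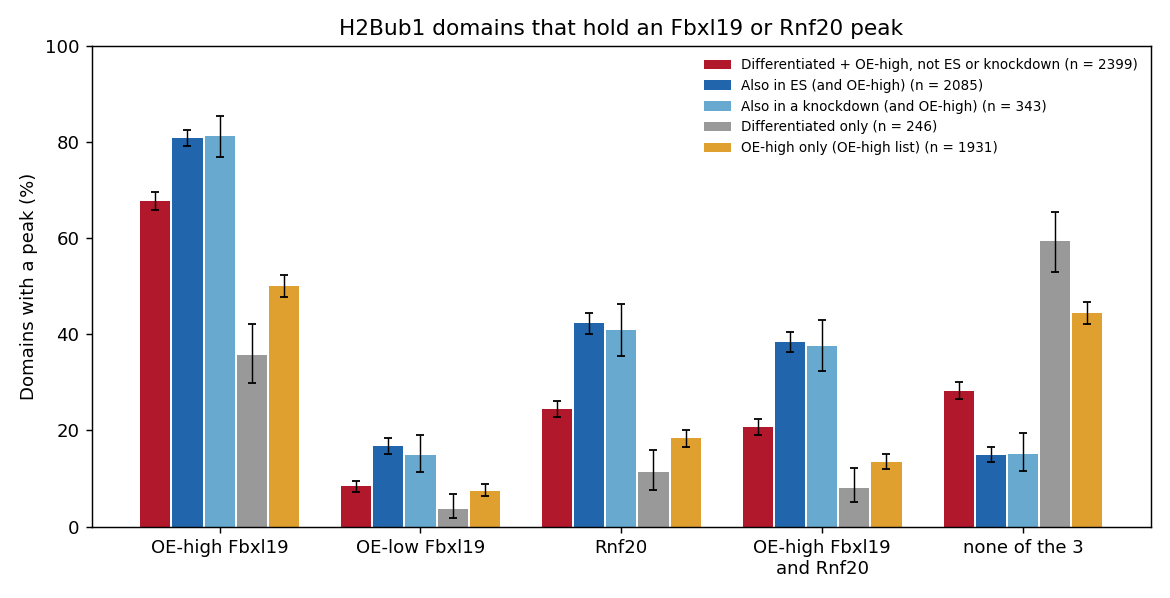
Bars give the percentage of H2Bub1 domains that hold at least 1 peak of each list, for the 2399 domains shared by differentiation and OE-high (left bar of each group) and 4 other classes, with exact 95% intervals for counting error as lines. The shared domains hold OE-high Fbxl19 in 67.8%, OE-low Fbxl19 in 8.38% and Rnf20 in 24.4%, each below the domains also in ES cells and above differentiated-only domains.

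Fbxl19 without Rnf20 was the more frequent combination in members, as in all differentiated domains. Both occurred in 496 members (20.7%, background 28.3%; 8.84% with the upper 50% of each peak list), and in 488 members (20.3%, background 26.7%) they overlapped directly. Rnf20 with no Fbxl19 peak of either clone was found in 88 members (3.67%, background 3.71%). OE-high Fbxl19 without Rnf20 was found in 1130 members (47.1%, background 44.1%), against 42.6% of the domains also in the ES and OE-high lists. Rnf20 lay in 30.5% (interval 28.3 to 32.8) of the members with an OE-high Fbxl19 peak and in 11.6% (interval 9.47 to 14.1) of those without. The same shares were 47.4% and 20.9% in the domains also in ES and OE-high. A longer domain can overlap more peaks of both lists, so these shares are not independent of length. Peaks of all 3 lists met in 101 members (4.21%, background 7.14%), and none of the 3 occurred in 678 (28.3%, background 23.6%).

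The members held 2093 of the 13669 OE-high Fbxl19 peaks (15.3%), and 1311 members had a single such peak, 217 had 2 and 98 had 3 or more. The 315 members with at least 2 made up 13.1%, against a background of 17.8% and 24.0% of domains also in ES and OE-high. Of the 2093 peaks, 543 (25.9%, interval 24.1 to 27.9) overlapped an Rnf20 peak, against 22.4% of all OE-high peaks and 34.9% (interval 33.0 to 36.8) of those in domains also in ES and OE-high. An OE-low peak lay at 213 of them (10.2%, interval 8.91 to 11.6), against 12.9% of all OE-high peaks, 15.7% (interval 14.3 to 17.3) in domains also in ES and OE-high and 11.8% (interval 10.1 to 13.6) in OE-high-only domains. Rnf20 overlap in OE-high-only domains was 20.8% (interval 18.7 to 23.1). Their median score, which ranks peaks within the Fbxl19 list, was 10.7, and that in domains also in ES and OE-high was 11.1. Peaks in members had a median length of 759 bp, against 853 bp in domains also in ES and OE-high, 802 bp in all differentiated domains and 468 bp outside all differentiated and OE-high domains, where 14.5% overlapped Rnf20.

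The lower shares in members than in domains also in ES and OE-high were not limited to short domains. In domains under 5 kb, OE-high Fbxl19 lay in 58.6% (interval 53.0 to 64.0) of 321 members and in 65.5% (interval 57.3 to 73.2) of 148 domains also in ES and OE-high, intervals that overlap. In domains of 10 to 20 kb the shares were 63.1% (interval 59.0 to 67.1) and 79.5% (interval 75.7 to 83.0). In domains of 40 kb or more they were 78.7% (interval 74.9 to 82.1) and 85.4% (interval 82.3 to 88.2). Rnf20 differed at each length, with 16.2% (interval 12.3 to 20.7) against 43.9% (interval 35.8 to 52.3) under 5 kb and 33.6% (interval 29.5 to 37.8) against 48.3% (interval 44.2 to 52.4) at 40 kb or more. The share of members with Rnf20 was thus higher in longer domains, whereas in domains also in ES and OE-high the shortest class already stood at 43.9%.

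**Figure D2:**
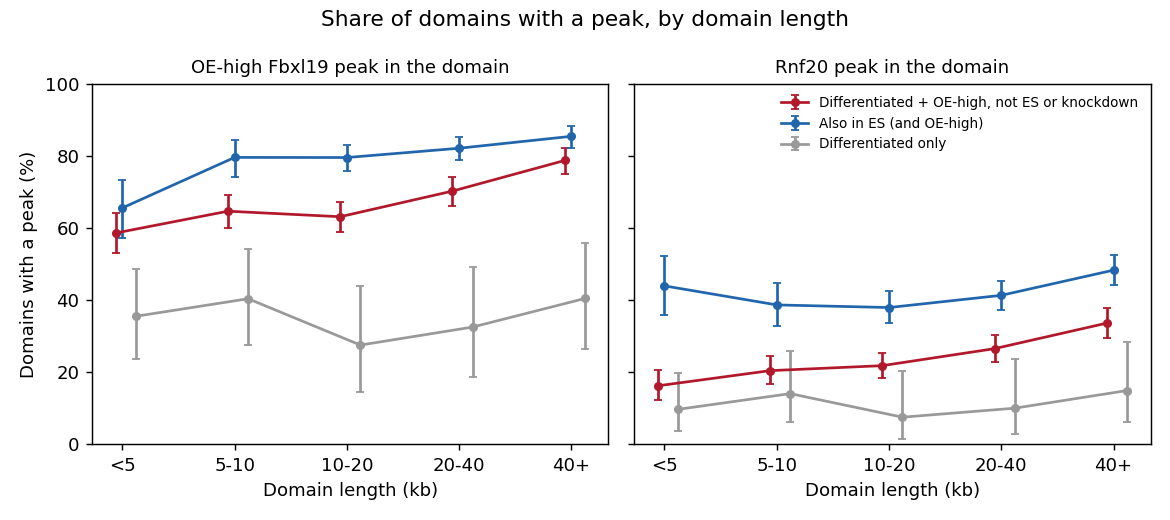
Points give the percentage of domains with an OE-high Fbxl19 peak (left) or an Rnf20 peak (right) in 5 classes of domain length in kb, with exact 95% intervals, for the shared domains, domains also in ES cells and differentiated-only domains. The shared domains lie below those also in ES cells in every class, and under 5 kb their intervals overlap for OE-high Fbxl19.

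The contrast was also present at like score. Among domains below the lower quartile of score in the differentiated list, OE-high Fbxl19 lay in 63.7% (interval 60.2 to 67.1) of 775 members and in 78.1% (interval 73.1 to 82.5) of 319 domains also in ES and OE-high. Above the upper quartile it lay in 72.2% (interval 66.8 to 77.2) of 299 members and in 81.3% (interval 78.5 to 83.9) of 819 such domains. Rnf20 lay in 23.0% and 41.1% of the same low-scoring domains, and in 27.4% and 44.6% of the high-scoring ones.

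Fbxl19 peaks were denser at the ends of members than inside them, which was also true of all differentiated domains. In 1302 members a summit of the OE-high clone was no more than 1 kb from an end, inside or just outside (54.3%, interval 52.3 to 56.3), against a background of 56.9% of differentiated domains, and in 28.8% with the upper 50% of peaks. The same held for Rnf20 midpoints in 435 members (18.1%, background 22.9%) and for OE-low summits in 138 (5.75%, background 7.79%). OE-high summits were present at 155 per Mb in the first kb outside an end and 133 per Mb in the first kb inside, against 166 and 142 per Mb in all differentiated domains. In members the density was 25.9 per Mb at 1 to 2 kb inside, 13.1 per Mb at 5 to 10 kb and 8.49 per Mb at 10 to 20 kb, and it was 17.5 per Mb at 1 to 2 kb outside. Rnf20 midpoints followed the same shape at lower densities, with 49.8 per Mb in the first kb outside, 50.9 per Mb in the first kb inside and 14.5 per Mb at 1 to 2 kb inside. Domains also in ES and OE-high had 77.9 Rnf20 midpoints per Mb in the first kb outside and 103 in the first kb inside.

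**Figure D3:**
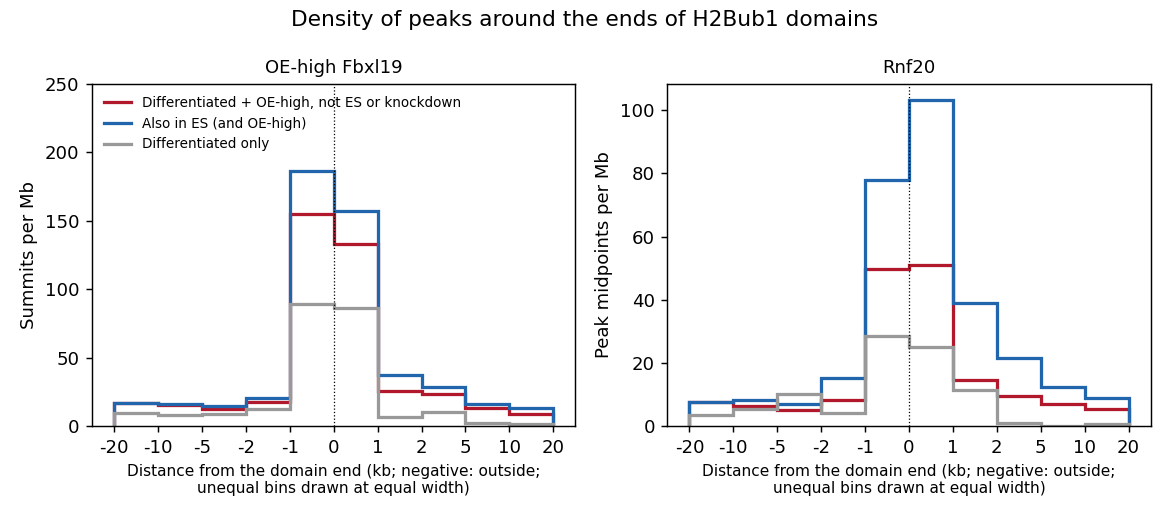
Lines give OE-high Fbxl19 summits (left) and Rnf20 midpoints (right) per Mb by distance from the domain end in kb, negative outside and positive inside, for the shared domains, domains also in ES cells and differentiated-only domains. Both profiles peak within 1 kb of the end, where the shared domains have 155 Fbxl19 summits per Mb outside and 133 inside.

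In members, as in differentiated domains at large, Fbxl19 was found more often at 1 end than at both. Among the 2355 members over 2 kb, 1241 (52.7%, interval 50.7 to 54.7) had an OE-high Fbxl19 summit within 1 kb of 1 end and 48 (2.04%, interval 1.51 to 2.69) at both. The product of the left and right shares was 8.03%. In all differentiated domains over 2 kb the shares were 54.6% at 1 end and 2.94% at both, with a product of 9.13%. Of the 1241 members with Fbxl19 at a single end, 305 (24.6%, interval 22.2 to 27.1) had an Rnf20 midpoint at the same end and 16 (1.29%, interval 0.739 to 2.09) at the opposite end. In domains also in ES and OE-high these were 37.2% (interval 34.5 to 40.1) and 3.83% (interval 2.82 to 5.08).

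In members with Fbxl19 at 1 end, that end was shared with the OE-high domain more often than the opposite end. Members without Fbxl19 also shared ends. At least 1 end was shared in 88.2% of 643 members with neither Fbxl19 nor Rnf20. This was 86.1% of 1083 with OE-high Fbxl19 alone and 84.1% of 472 with both. In members with no Fbxl19 at an end, 57.4% of 2064 ends were shared. Both ends lay within 1 kb of those of the OE-high domain in 768 of the 2283 members with a single match (33.6%), 1 end did so in 1204 (52.7%) and neither in 311 (13.6%). In 1204 members that had a single match and a summit at a single end, the end with Fbxl19 lay within 1 kb of the OE-high end in 1023 (85.0%, interval 82.8 to 86.9). The opposite end did so in 465 (38.6%, interval 35.9 to 41.4). The median absolute distance between the ends of the 2 lists was 200 bp, the grid of the domain caller, at the end with Fbxl19 and 2200 bp (interval 1800 to 2600) at the opposite end. The grid and the broad calls limit how finely an end is placed.

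At the opposite end the OE-high domain reached farther more often than it stopped short. It ran more than 1 kb past the member in 563 cases (46.8%, interval 43.9 to 49.6) and stopped more than 1 kb short in 176 (14.6%, interval 12.7 to 16.7). At the end with Fbxl19 these numbers were 173 (14.4%, interval 12.4 to 16.5) and 8 (0.664%, interval 0.287 to 1.31). Taken by what lay there, ends with OE-high Fbxl19 and Rnf20 were shared in 83.4% (interval 79.0 to 87.3) of 332 cases and ends with OE-high Fbxl19 alone in 84.2% (interval 81.7 to 86.4) of 966. Ends with Rnf20 alone were shared in 69.5% (interval 59.8 to 78.1) of 105 cases, and ends with neither in 49.9% (interval 48.1 to 51.6) of 3163.

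This pattern was not particular to the members. Of 1977 domains over 2 kb also in ES and OE-high with a single match, both ends were shared in 32.0%. In these, 1 end was shared in 52.0% and neither in 15.9%. In domains also in ES and OE-high, 80.2% (interval 77.8 to 82.5) of the ends with Fbxl19 and 43.1% (interval 40.2 to 46.0) of the opposite ends lay within 1 kb of the OE-high end.

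**Figure D4:**
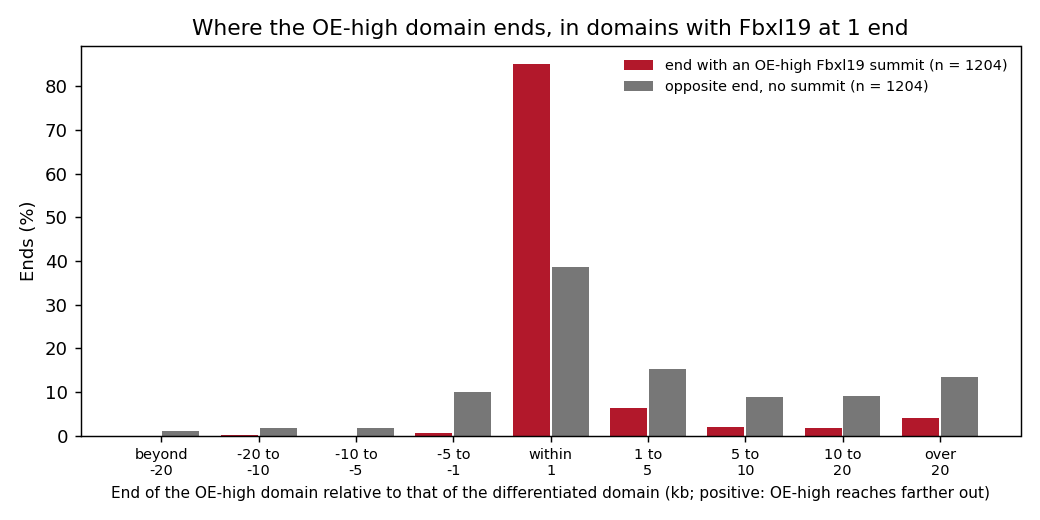
Bars give the percentage of ends by the position of the OE-high end relative to the end of the differentiated domain in kb, positive where OE-high reaches farther out, in 1204 shared domains with Fbxl19 at 1 end. Ends with a summit fall within 1 kb in 85.0% and opposite ends in 38.6%, and the opposite ends spread to the positive side.

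Chromosomes differed in how many of their differentiated domains were members. The share had a median of 51.7% over autosomes and was lowest on chromosomes 11 (26.5%, interval 22.7 to 30.5) and 1 (28.5%, interval 24.2 to 33.1) and highest on chromosome 12 (60.8%, interval 54.4 to 67.1). Chromosomes 11 and 1 also had the most ES domains, 407 and 349, which bar membership, and their part in the low shares was not tested. The share of members with OE-high Fbxl19 ran from 52.8% on chromosome 18 to 79.1% on chromosome 14. The 13 members on the X chromosome included a single one with OE-high Fbxl19, on a chromosome with 52 of the 13669 peaks.

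Rnf20 in members varied far more, with 52.1% (interval 44.2 to 59.9) on chromosome 8 and 7.5% (interval 3.49 to 13.8) on chromosome 1 around an autosomal median of 24.1%. Domains also in ES and OE-high had the same extremes among autosomes, with 66.7% on chromosome 8 and 25.8% on chromosome 1. Chromosome 8 held 928 of the 8606 Rnf20 peaks and chromosome 1 held 357, although chromosome 1 had more OE-high Fbxl19 peaks (1313 against 729). The Rnf20 list is from a single library, so a difference between chromosomes in that library and one in binding cannot be told apart. On each of the 19 autosomes, the share of members was below that of domains also in ES and OE-high, for OE-high Fbxl19 and for Rnf20.

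**Figure D5:**
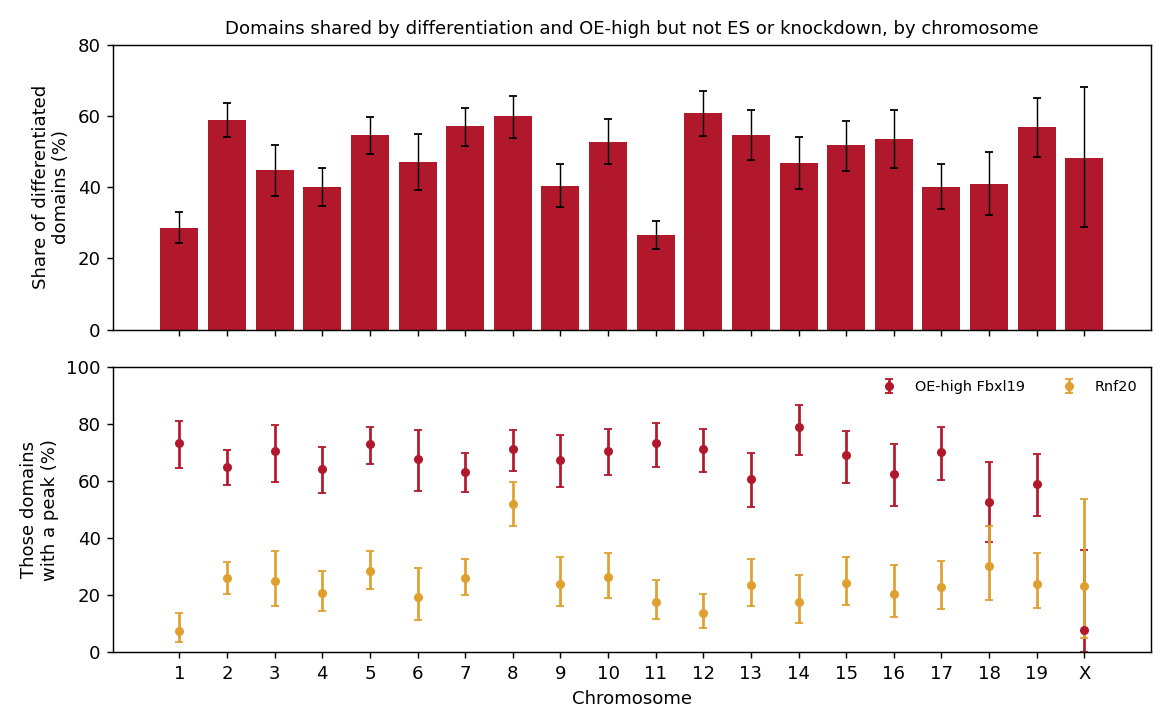
Top, bars give the percentage of each chromosome's differentiated domains that are shared with OE-high but not with ES or knockdown cells. Bottom, points give the percentage of those domains with OE-high Fbxl19 or Rnf20, with exact 95% intervals in both panels; chromosomes 1 and 11 are lowest on top, and chromosome 8 is highest for Rnf20 with 52.1%.

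The members with the highest scores were of very different lengths. The first, at 80392800 to 80394399 on chromosome 10 (score 25.8), was 1600 bp long, had the same start and end in the OE-high list, and carried an OE-high Fbxl19 peak whose summit at 80392850 lay 50 bp inside its left end. The second, 51027800 to 51043799 on chromosome 3 (score 24.4), held 3 OE-high Fbxl19 peaks, and 1 of their summits lay 943 bp inside the left end. Its OE-high domain shared the right end but began at 50999800. The third, 64225400 to 64261199 on chromosome 14 (score 23.4), was identical in both lists over 35800 bp, with its only Fbxl19 summit at 64225054, just outside the left end. These 3 had no Rnf20 peak.

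Of the next 3, those at 56097200 to 56111999 on chromosome 10 (score 22.6) and 5265200 to 5327799 on chromosome 11 (score 21.7) held no peak of any list. The last lay 1200 bp from an ES domain and so is also close to the edge of the rule. The sixth, 114234400 to 114267599 on chromosome 8 (score 21.0), had 1 peak each of OE-high Fbxl19 and Rnf20, which did not overlap. Among the 6, high score thus occurred with and without Fbxl19 in the domain. The next members with no peak were at 60685800 to 60688199 on chromosome 18 (score 20.3) and 93948200 to 93997999 on chromosome 2 (score 19.6). The chromosome 2 member had identical ends in both lists and lay 2564400 bp from any ES domain.

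Among the 6 highest-scoring members with peaks of all 3 lists, 5 had an OE-high Fbxl19 summit at an end, and in these 5 the OE-low summit and an Rnf20 midpoint lay within 1 kb of the same end. At 76433600 to 76437999 on chromosome 15 (score 20.3), the OE-high and OE-low summits at 76437992 and 76437991 and the Rnf20 midpoint at 76437994 all fell within 8 bp of the right end. This end was shared with the OE-high domain, which began at 76406800 and was 31200 bp long against 4400 bp in differentiated cells. The member at 143663600 to 143668399 on chromosome 5 (score 17.9) also shared its right end, where a broad Rnf20 peak of score 700 covered both Fbxl19 summits, and its OE-high domain was 38600 bp long. At 124330600 to 124353599 on chromosome 8 (score 17.5) the 3 peaks sat at the right end, which both lists placed within 200 bp.

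In 2 others the peaks were at the left end. At 173901800 to 173922999 on chromosome 2 (score 15.8) the 2 Fbxl19 summits and the Rnf20 midpoint lay 18 to 40 bp outside the left end, and the OE-high domain began 200 bp farther out. At 86424000 to 86447199 on chromosome 8 (score 16.3) an OE-high Fbxl19 summit lay 47 bp inside the left end, which was identical in both lists, and the OE-high domain ran on to 86466599. The exception was 31941800 to 31957799 on chromosome 16 (score 17.8), where all 3 peaks lay inside, 6754 to 6821 bp from the left end.

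The longest members had few peaks for their size. The longest, 52937600 to 53169199 on chromosome 15 (231600 bp), had none, and its OE-high domain ran from 52937400 to 53179599. The next, 75097000 to 75327799 on chromosome 7, had a single OE-high Fbxl19 peak, at its left end, which both lists placed at the same base. At 119823000 to 120051799 on chromosome 7, the 3 OE-high Fbxl19 peaks lay inside, 2 of them overlapped Rnf20, and 1 of these 2 also met an OE-low summit at 119835276. The other long members lay on chromosome 4 (149655800 to 149879599), chromosome 3 (27401600 to 27610199) and chromosome 5 (119010400 to 119213799). They had 2 or 3 OE-high Fbxl19 peaks, 1 of them at an end, and no OE-low or Rnf20 peak.

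The members richest in OE-high Fbxl19 held 6 or 7 peaks. Those with 7 were 117126800 to 117212799 and 107179000 to 107331799, both on chromosome 11, with 1 and 5 Rnf20 peaks. Those with 6 were, on chromosome 12, 111685400 to 111783999, on chromosome 7, 20281000 to 20334799, on chromosome 14, 54980600 to 55032999, and on chromosome 8, 123013200 to 123090399. Their scores in the differentiated list, 7.73 to 10.3, were at or below its median of 10.1 in 5 of the 6.

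The members farthest from any ES domain were on chromosomes 8 and 7. On chromosome 8, 3 neighbours at 3393000 to 3428999, 3499600 to 3506399 and 3582200 to 3585599 lay at least 5074000 bp from the nearest ES domain. The first had an OE-high Fbxl19 summit 5 bp outside its left end and the last had no peak. The other, 80571000 to 80705399 on chromosome 7, lay 5220200 bp from an ES domain and held 4 OE-high Fbxl19 peaks, 1 OE-low peak and 3 Rnf20 peaks toward its right side.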

How the data were processed

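Mouse J1 ES cell chromatin was profiled in 21 samples, and 8 deposited lists of regions were used. Per the submitters' processing notes, BWA 0.5.9-r16, MACS and mm9 were used. Per the file headers, the H2Bub1 domains come from a caller named BCP, on a 200 bp grid. The score of each domain or peak is the authors' own deposited value, of a scale that is not stated, and was used only to rank within a list. Domain lengths are also as deposited.

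Regions were compared in Python 3.11.15 with NumPy 2.4.6 and SciPy 1.17.1, tested on simulated data, and drawn with matplotlib 3.10.9. Overlap meant at least 1 bp. An end was counted as marked when a summit (Fbxl19) or midpoint (Rnf20) lay within 1 kb of it, in domains over 2 kb where both ends were compared. Domains were classed by the lists they overlapped. Intervals are exact Clopper-Pearson at 95%, and those of differences combine both intervals in squares. Depth is not in these lists, so its precision is unknown.

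Regions named are the 6 highest in score, the 6 longest, the 6 with most OE-high Fbxl19 peaks, the 6 highest in score with peaks of all 3 lists, the 4 highest with no peak, the 4 farthest from ES domains and those nearest the limits of the rule. The members and classes were chosen with earlier results of these data known. Alternatives covered overlap, score, list size, length, chromosomes and peak position. No gene or sequence was assigned, since no mm9 reference was used here.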

Additional observations from a re-analysis of the deposited data

How the results depend on the processing

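Of 140 values recomputed for 13 results under 12 alternatives, 98 stayed within their interval or within 1.5 times a count and 42 moved beyond. A reversal of sign was possible only for the differences in points, and 0 of those reversed. The cause of the moves was not tested. Barring any ES or knockdown domain within 10 kb gave 1.90% of members whose OE-high domain also overlapped ES. With the upper 50% of the differentiated and OE-high lists by score there were 643 members, with OE-high Fbxl19 in 72.0%, Rnf20 in 27.4%, both in 23.5% and a summit at an end in 62.1%. Their median distance to ES was 205600 bp, the Fbxl19 difference from domains also in ES and OE-high was -9.87 points, and 87.1% of ends with Fbxl19 and 49.1% of opposite ends were shared. With both lists at the size of the ES list the same quantities were 643, 71.4%, 27.8%, 24.1%, 61.9%, 203600 bp, -10.6 points, 87.6% and 51.6%. Without chromosomes 1, 4, 9, 11 and 14, Rnf20 lay in 26.7%, both peaks in 22.5%, the OE-high domain overlapped ES in 1.94% and the distance was 242200 bp.

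Counting summits or midpoints inside the domain, with 2 kb for the end, gave 45.4% for OE-high Fbxl19, 6.21% for OE-low, 20.1% for Rnf20, 14.9% for both, 58.8% at an end and 87.9% of ends with Fbxl19 shared. The upper 50% of each peak list, which holds fewer peaks by construction, gave 38.1%, 4.71%, 14.4%, 8.84% and 28.8% for the first 5 of these, and an Rnf20 difference of -14.5 points. With the OE-high Fbxl19 and Rnf20 lists at the size of the OE-low list, OE-high Fbxl19 lay in 13.4%, Rnf20 in 7.75%, both in 2.50% and a summit at an end in 9.80%. The differences were then -10.3 points for Fbxl19 and -10.7 for Rnf20, and 81.9% of ends with Fbxl19 were shared. Leaving out chromosomes 1 and 8, the 4 results on differences and shared ends, and their alternatives were chosen after seeing the data. Barring OE-high domains that overlap ES gives no value for the share that overlaps ES. No paired analysis was possible because each group has a single list, and for the same reason no replicate could be left out.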

Other observations

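Members with OE-high Fbxl19 and Rnf20 together were longer, with a median of 22700 bp (interval 20400 to 25800), than the 683 members with neither, at 13200 bp (interval 12400 to 14600). A longer domain can overlap more peaks, so these groups are not independent of length. OE-low Fbxl19 lay in 20.4% (interval 16.9 to 24.2) of the 496 members with both peaks and in 8.23% (interval 6.69 to 9.99) of the 1130 with OE-high Fbxl19 and no Rnf20. Among the 773 members with no OE-high Fbxl19 peak, the nearest such peak lay within 1 kb in 42, within 5 kb in 96 and within 10 kb in 163.

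Where the OE-high domain ran more than 1 kb past the end opposite Fbxl19, the added stretch had a median of 9600 bp (interval 8400 to 11200). It held an OE-high Fbxl19 summit in 107 of 563 cases (19.0%, interval 15.8 to 22.5), and the OE-high end itself carried one in 35 (6.22%, interval 4.37 to 8.54).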
